A study of Mus musculus with 4 samples.

Results

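The transcription factor NRF2 (encoded by *Nfe2l2*) and 9 genes of the antioxidant response were followed in the dorsal skin of steatohepatitic mice, by their symbols in the first column of the deposited files. All 10 were found among 24346 symbols, and all 10 passed the filter on low values, a mean of at least 0.1 FPKM over the 4 libraries. Male C57BL/6 mice, aged 8 weeks when the diet began, received a NASH diet rich in fat, cholesterol and sucrose with bile salt (Cont-IMQ group), or the same diet containing 7-ketocholesterol (7KC-IMQ group), for 3 weeks. Imiquimod (IMQ) cream at 5%, a Toll-like receptor agonist that induces psoriasis-like dermatitis, was then applied, and the skin was taken after 1 day. There were 2 libraries in each group, all of them from IMQ-treated skin on the NASH diet, so neither vehicle-treated skin nor a normal diet is part of the comparison. Nothing states that the replicates came from separate mice, and the p-values measure the spread between these libraries only.

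NRF2 is held in the cytoplasm by KEAP1, which passes it to a CUL3 ubiquitin ligase for degradation. When electrophiles or oxidants modify KEAP1, NRF2 enters the nucleus, pairs with a small Maf protein and binds the antioxidant response element of genes for glutathione, thioredoxin and detoxifying enzymes. BACH1 competes for the same elements. Keratinocytes face ultraviolet light and oxidants at the body surface, and NRF2 is one of the regulators of their redox state. Its activity is set mainly by protein stability, which the RNA level does not show.

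Values are FPKM, in which the reads of a gene are divided by its transcript length and by the mapped reads of the library, so levels of different genes can be set side by side. A difference is 7KC-IMQ minus Cont-IMQ on the log2(FPKM + 1) scale, which understates the change of genes at a low level. Adjusted p-values are from limma with Benjamini-Hochberg adjustment over the 15896 genes tested. Depth was estimated from the low values, between 15010000 and 16320000 reads per library. For a member with 1 annotated coding transcript, that is 48 to 96 reads for *Gpx2* and 2202 to 2824 reads for *Nfe2l2*, and these numbers cover counting error only.

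Among the 10 genes, *Slc7a11* and *Sod2* had the largest differences, both higher in the 7KC-IMQ group. *Nfe2l2*, *Txnrd1* and *Gclm* were also higher without overlap and *Hmox1* lower, while *Nqo1*, *Gclc*, *Srxn1* and *Gpx2* overlapped between the groups. None of the 10 passed an adjusted p-value of 0.05 in limma, and 3 (*Nfe2l2*, *Slc7a11* and *Sod2*) had an unadjusted p-value under 0.05, all of them higher. Without 7KC-IMQ replicate 2 that count was 1, and the count over all genes was 619 in place of 2061. Of all genes tested, 0.00629% passed the adjusted threshold and 13.0% the unadjusted one (7.50% higher and 5.47% lower). The groups lay apart, meaning that both 7KC-IMQ values were above or both below the Cont-IMQ values, in 6 of the 10 genes, 5 of them higher and 1 lower, against 46.8% of all genes tested (23.9% higher and 22.9% lower). The median difference of the 10 was 0.16, against -0.01 for all genes tested. With 2 libraries on each side, the smallest p-value of a two-sided exact permutation test for a single gene is 0.33, so that test was not used.

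**Figure D1:**
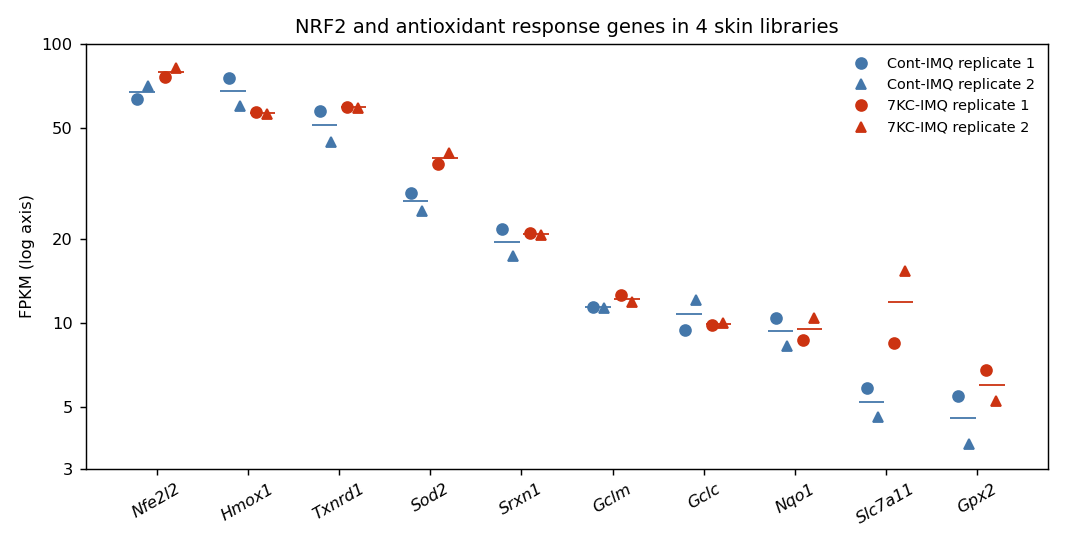
FPKM on a log axis for each of the 10 genes, ordered by the mean level, with a symbol for each library and a line at each group mean. *Slc7a11*, *Sod2*, *Nfe2l2*, *Txnrd1* and *Gclm* lie higher in both 7KC-IMQ libraries and *Hmox1* lower, whereas *Nqo1*, *Gclc*, *Srxn1* and *Gpx2* overlap.

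*Nfe2l2* itself (ENSMUSG00000015839.6) lies on the minus strand of chromosome 2, at 75675513 to 75704641 in the GRCm38 build (mm10), and was the most abundant of the 10 by mean level. It had 63.6 and 70.5 FPKM in Cont-IMQ skin against 76.1 and 82.1 FPKM in 7KC-IMQ skin, given throughout as replicate 1 and then replicate 2. Both 7KC-IMQ libraries were above both Cont-IMQ libraries, with means of 79.1 ± 4.29 against 67.0 ± 4.90 FPKM (SD, n = 2). The difference was 0.24 (standard error 0.09, 95% interval 0.0013 to 0.47, adjusted p = 0.382 in limma). It was 0.15 after quantile normalization and between 0.16 and 0.31 when single libraries were left out.

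The promoter of *Nfe2l2* is shown because the gene is itself described as a target of NRF2. The sequences here are from RefSeq (GRCm38.p6), in which 8 of the 10 genes were found, *Gclc* and *Hmox1* not, as windows of 300 bases that end 50 bases after the start of a transcript. The motifs searched on both strands were the antioxidant response element core TGACNNNGC, the Maf-type core TGAGTCAGC and the C/EBP-ATF response element core TGATGNAA, to which ATF4 binds, and none of the 3 contains another. The upstream 250 bases of *Nfe2l2* (chr2:75704664-75704913, minus strand) hold TGACNNNGC once, in capitals, beginning at position -240, where -1 is the last base before the start.
*Nfe2l2* promoter: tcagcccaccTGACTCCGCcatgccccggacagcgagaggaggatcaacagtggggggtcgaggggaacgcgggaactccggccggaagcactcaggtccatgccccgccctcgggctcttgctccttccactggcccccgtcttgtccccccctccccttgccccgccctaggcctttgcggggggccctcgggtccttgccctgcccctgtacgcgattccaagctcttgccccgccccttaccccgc

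TGACNNNGC is found in the window of 12.4% of all promoters in the table. Among the 8 genes it was found in 4, and in 18 of the 91 other pathway genes that were matched, 14% being the share of all genes in the table. The matches in *Gclm* (chr3:122245413-122245441, plus strand), in 1 of the 3 windows of *Txnrd1* (chr10:82859104-82859132, plus strand) and in *Srxn1* (chr2:152105542-152105570, plus strand, within the transcribed bases) are shown with 10 bases on each side, since these genes are known targets of NRF2. *Srxn1* also holds TGAGTCAGC upstream (chr2:152105469-152105497), which only 0.414% of all promoters do. Capitals mark the match on either strand, and a match is a description of the letters and not of binding.
*Gclm* core: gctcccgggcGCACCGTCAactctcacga
*Txnrd1* core: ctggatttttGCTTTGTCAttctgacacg
*Srxn1* core: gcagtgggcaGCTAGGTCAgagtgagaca
*Srxn1* Maf-type core: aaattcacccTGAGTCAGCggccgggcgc
No match of TGACNNNGC was found in the windows of *Nqo1*, *Slc7a11*, *Sod2* and *Gpx2*, which says nothing of elements farther away.

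*Slc7a11* (ENSMUSG00000027737.10, minus strand of chromosome 3, 49892526 to 50443614) encodes xCT, the light chain of the transporter that brings in cystine for glutathione synthesis. It had 5.84 and 4.59 FPKM in Cont-IMQ skin against 8.48 and 15.3 FPKM in 7KC-IMQ skin. The groups did not overlap, and 7KC-IMQ replicate 2 stood well above replicate 1. The mean was 2.28 times that of the Cont-IMQ group, with a difference of 1.01 (standard error 0.29, 95% interval 0.25 to 1.77, adjusted p = 0.356 in limma). It was larger than the difference of 99.4% of all genes tested. Without 7KC-IMQ replicate 2 the difference was 0.62, and without 7KC-IMQ replicate 1 it was 1.40.

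The upstream 250 bases of *Slc7a11* (chr3:50443614-50443863, minus strand) are shown because this gene had the largest difference and is also known as a target of ATF4. They hold TGATGNAA on each strand, in capitals, beginning at positions -66 and -47. This motif was found in 3.97% of all promoters. By gene, it was found in 1 of the 8 genes and in 3 of the 91 other pathway genes, 4.51% being the share of all genes in the table. It was chosen after the data were seen. Those 3 genes, named here for the motif, differed in direction. *Chac1* overlapped between the groups (difference -0.05), *Ptgr1* lay lower (-0.24) and *Duox1* higher (0.42). The match in *Duox1* lies within the transcribed bases. Any part of ATF4 in these values was not tested.
*Slc7a11* promoter: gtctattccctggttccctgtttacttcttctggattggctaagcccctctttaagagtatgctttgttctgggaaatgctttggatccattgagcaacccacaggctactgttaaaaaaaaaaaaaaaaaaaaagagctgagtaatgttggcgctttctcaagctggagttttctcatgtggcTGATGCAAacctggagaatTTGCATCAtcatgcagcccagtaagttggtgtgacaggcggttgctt

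The heavy chain of the same transporter, *Slc3a2*, was picked out after its values were seen. It had 59.6 and 69.1 FPKM in Cont-IMQ skin against 74.5 and 85.0 FPKM in 7KC-IMQ skin. The groups lay apart, with a difference of 0.31 (standard error 0.11, adjusted p = 0.380 in limma), which was 0.20 without Cont-IMQ replicate 1.

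*Sod2* (ENSMUSG00000006818.5, plus strand of chromosome 17, 13006846 to 13040063) encodes the mitochondrial manganese superoxide dismutase, a gene also induced by NF-κB. It had 29.3 and 25.2 FPKM in Cont-IMQ skin against 37.3 and 40.7 FPKM in 7KC-IMQ skin. The groups did not overlap, and the gap between them was wider than the spread within either, with means of 27.3 ± 2.91 and 39.0 ± 2.41 FPKM (SD, n = 2). The difference was 0.50 (standard error 0.11, 95% interval 0.22 to 0.78, adjusted p = 0.352 in limma), and between 0.40 and 0.61 with each library left out. Of the 75-base windows of its transcripts, 16.2% also occur in another annotated gene, so some of its reads could be shared.

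The 3 other enzymes listed with it also remove superoxide or hydrogen peroxide. *Sod1*, the cytosolic superoxide dismutase, had 176.0 and 200.4 FPKM against 190.9 and 176.9 FPKM. *Sod3*, the extracellular enzyme, had 36.1 and 37.5 FPKM against 41.6 and 41.3 FPKM, a difference of 0.17 (adjusted p = 0.411 in limma). Catalase (*Cat*) lay lower in both 7KC-IMQ libraries, with 76.0 and 91.3 FPKM against 71.3 and 60.2 FPKM, a difference of -0.34 (adjusted p = 0.393 in limma), which was -0.21 without Cont-IMQ replicate 2 and -0.22 without 7KC-IMQ replicate 2. Of these 3 genes, 0 had an unadjusted p-value under 0.05 in limma, against 13.0% of all genes tested, and 3 genes are too few to set against that share.

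*Hmox1* (ENSMUSG00000005413.8, plus strand of chromosome 8, 75093621 to 75100589) encodes heme oxygenase 1, which splits heme into iron, carbon monoxide and biliverdin and is abundant in macrophages. It was the one member that lay lower in both 7KC-IMQ libraries, with 57.1 and 56.1 FPKM against 75.5 and 59.9 FPKM in Cont-IMQ replicates 1 and 2. The 7KC-IMQ libraries were close to each other, and Cont-IMQ replicate 1 stood above the rest. The difference was -0.25 (standard error 0.13, 95% interval -0.58 to 0.09, adjusted p = 0.493 in limma). Without Cont-IMQ replicate 1 it was -0.08.

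Of the 10 other genes of heme and iron, 4 lay higher and 4 lower without overlap, against 23.9% and 22.9% of all genes tested. An unadjusted p-value under 0.05 was found in 3, against 13.0% of all genes tested. The median difference of the list was -0.01. *Slc40a1*, the iron exporter ferroportin, had 12.8 and 16.2 FPKM in Cont-IMQ skin against 8.05 and 7.04 FPKM in 7KC-IMQ skin. Both 7KC-IMQ values were well below both Cont-IMQ values, a difference of -0.85 (standard error 0.14, adjusted p = 0.352 in limma). *Fth1*, the heavy chain of the iron store ferritin, lay apart in the other direction, with 1405 and 1519.8 FPKM against 1968 and 2136 FPKM, a difference of 0.49 (adjusted p = 0.356 in limma). *Alas1*, which begins heme synthesis, had 43.7 and 44.8 FPKM against 52.0 and 65.7 FPKM. *Blvrb*, a biliverdin reductase, had 49.8 and 54.3 FPKM against 43.5 and 46.7 FPKM.

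Macrophage markers are given beside *Hmox1* and *Slc40a1*. Of 11 markers tested, 3 (*Lyz2*, *Cd68* and *Csf1r*) were lower without overlap, near the 22.9% of all genes tested, and 0 were higher, with a median difference of -0.15. Their summed level overlapped, at 1001 and 1225 FPKM in Cont-IMQ skin against 955 and 1019.6 FPKM in 7KC-IMQ skin. None of the 11 was at 0, and *Adgre1* had at least 46.7 FPKM in each library. The part of the macrophage markers in these results was not tested, and in whole skin fewer cells of a type cannot be told apart from less RNA per cell.

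The catalytic and the modifier subunit of the glutamate-cysteine ligase, the rate-limiting enzyme of glutathione synthesis, are encoded by *Gclc* and *Gclm*. *Gclc* (ENSMUSG00000032350.9, plus strand of chromosome 9, 77754535 to 77794485) had 9.43 and 12.1 FPKM in Cont-IMQ skin against 9.85 and 10.02 FPKM in 7KC-IMQ skin. Its 7KC-IMQ values lay between the Cont-IMQ values, with a difference of -0.09 (95% interval -0.45 to 0.26, adjusted p = 0.799 in limma). *Gclm* (ENSMUSG00000028124.15, plus strand of chromosome 3, 122245557 to 122270732) had 11.4 FPKM in each Cont-IMQ library against 12.5 and 11.9 FPKM in 7KC-IMQ skin. The groups lay apart by a narrow gap, with a difference of 0.09 (95% interval -0.13 to 0.32, adjusted p = 0.673 in limma), which was 0.056 without 7KC-IMQ replicate 1.

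*Gpx2* (ENSMUSG00000042808.8, minus strand of chromosome 12, 76792333 to 76795554), a glutathione peroxidase of epithelia that contains selenocysteine, was the least abundant of the 10. It had 5.46 and 3.68 FPKM in Cont-IMQ skin against 6.80 and 5.23 FPKM in 7KC-IMQ skin. The groups overlapped, and the difference was 0.34 (95% interval -0.21 to 0.90, adjusted p = 0.547 in limma). It was 0.11 without Cont-IMQ replicate 2 and 0.18 without 7KC-IMQ replicate 1.

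The other 28 genes of glutathione synthesis and use lay on both sides of 0. The groups lay apart in 15 of them (53.6%), 7 higher and 8 lower, against 46.8% of all genes tested. The median difference was -0.05. An unadjusted p-value under 0.05 was found in 25% of the list, against 13.0% of all genes tested. Of these 7 genes, 4 were higher (*Gsta4*, *Gstp1*, *Gsr* and *Slc3a2*) and 3 lower (*Mgst2*, *Gstt1* and *Gstm1*). *Gsta4*, a transferase for the lipid peroxidation product 4-hydroxynonenal, had the largest difference. It had 28.6 and 31.2 FPKM in Cont-IMQ skin against 46.3 and 101 FPKM in 7KC-IMQ skin, a difference of 1.17 (standard error 0.37, adjusted p = 0.365 in limma), which was 0.62 without 7KC-IMQ replicate 2. As in *Slc7a11*, 7KC-IMQ replicate 2 stood far above replicate 1.

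*Gsr*, the glutathione reductase, named after its values were seen, had 15.8 and 14.4 FPKM against 18.04 and 19.4 FPKM, a difference of 0.29 (adjusted p = 0.365 in limma). *Gstp1* had 30.5 and 36.0 FPKM against 45.7 and 41.5 FPKM, a difference of 0.38, and 29.2% of its windows are shared, mostly with *Gstp2*. *Mgst2*, a microsomal transferase, had 24.2 and 17.4 FPKM against 11.5 and 14.3 FPKM, a difference of -0.64 (adjusted p = 0.360 in limma), which was -0.41 without Cont-IMQ replicate 1. These 3 lay apart between the groups. *Gsta2* had 7.36 FPKM in Cont-IMQ replicate 1 and between 2.45 and 2.56 FPKM in the other libraries, so its groups overlapped. Of the pair named after their values were seen, *Gstt1* had a difference of -0.50 (-0.33 without 7KC-IMQ replicate 2) and *Gstm1* one of -0.28, both without overlap.

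*Txnrd1* (ENSMUSG00000020250.10, plus strand of chromosome 10, 82833951 to 82897712) encodes the cytosolic thioredoxin reductase, a selenoenzyme that keeps thioredoxin reduced. It had 57.7 and 44.5 FPKM in Cont-IMQ skin against 59.6 and 58.9 FPKM in 7KC-IMQ skin. The groups lay apart, but Cont-IMQ replicate 1 was within 2 FPKM of both 7KC-IMQ libraries. The difference was 0.22 (95% interval -0.14 to 0.59, adjusted p = 0.553 in limma), and 0.04 without Cont-IMQ replicate 2.

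*Srxn1* (ENSMUSG00000032802.8, plus strand of chromosome 2, 152105516 to 152111376) encodes sulfiredoxin, which repairs overoxidized peroxiredoxins. It had 21.6 and 17.4 FPKM in Cont-IMQ skin against 20.99 and 20.6 FPKM in 7KC-IMQ skin. The 7KC-IMQ values lay between the Cont-IMQ values, with a difference of 0.10 (95% interval -0.23 to 0.42, adjusted p = 0.775 in limma).

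Of the 14 other genes of the thioredoxin and peroxiredoxin systems, 6 lay higher and 3 lower without overlap, with a median difference of 0.10. The groups lay apart in 64.3% of the list, against 46.8% of all genes tested. An unadjusted p-value under 0.05 was found for *Txn1*, higher, and for *Txnip* and *Sesn1*, lower. These are 21.4% of the list, against 13.0% of all genes tested. *Txn1*, thioredoxin itself, had 138 and 119 FPKM in Cont-IMQ skin against 162 and 159.7 FPKM in 7KC-IMQ skin. *Txnip*, the protein that binds and inhibits thioredoxin, had 214 and 234 FPKM against 163 and 161 FPKM. Both lay apart, in opposite directions, with differences of 0.32 for *Txn1* (adjusted p = 0.357 in limma) and -0.46 for *Txnip* (adjusted p = 0.352 in limma). *Sesn1* and *Sesn2* encode stress-inducible sestrins. *Sesn1* had 22.5 and 23.5 FPKM against 18.3 and 14.0 FPKM, and *Sesn2* had 14.1 and 13.2 FPKM against 14.6 and 20.2 FPKM.

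*Nqo1* (ENSMUSG00000003849.8, minus strand of chromosome 8, 107388225 to 107403206) encodes a quinone reductase and is the most widely used readout of NRF2. It had 10.4 and 8.25 FPKM in Cont-IMQ skin against 8.67 and 10.4 FPKM in 7KC-IMQ skin. The values of the groups interleaved, with means of 9.32 ± 1.51 and 9.53 ± 1.21 FPKM (SD, n = 2). The difference was 0.03 (95% interval -0.37 to 0.43, adjusted p = 0.949 in limma), and it took either sign as libraries were left out.

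Among 20 tested genes of detoxification and export, 2 lay higher and 8 lower without overlap, against 23.9% and 22.9% of all genes tested. The median difference was -0.07. *Abcc2* and *Cyp2a5* did not pass the filter. An unadjusted p-value under 0.05 was found for *Akr1b8*, higher, and for *Aldh3a1*, *Ugt1a6a* and *Ephx1*, lower. That is 20% of those tested, against 13.0% of all genes tested. *Akr1b8*, an aldo-keto reductase, had 23.8 and 22.1 FPKM against 29.9 and 41.7 FPKM, a difference of 0.60 (adjusted p = 0.356 in limma), which was 0.37 without 7KC-IMQ replicate 2. *Aldh3a1*, an aldehyde dehydrogenase of surface epithelia, had 53.6 and 42.7 FPKM against 36.7 and 28.3 FPKM, a difference of -0.56 (adjusted p = 0.364 in limma). *Aldh1a1*, which also makes retinoic acid, had 44.4 and 43.5 FPKM against 38.5 and 27.6 FPKM. The pair named after their values were seen, *Ugt1a6a* and *Ephx1*, had differences of -0.42 and -0.35, and 51.2% of the windows of *Ugt1a6a* are shared. *Akr1b3* was listed at 0 in Cont-IMQ replicate 2, which can be a failed estimate, and at 2.98, 1.43 and 6.41 FPKM in the other libraries.

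NADPH feeds both glutathione reductase and thioredoxin reductase. Of 6 genes listed for its supply, 4 lay higher (*Tkt*, *Pgd*, *G6pdx* and *Taldo1*) and 1 lower (*Idh1*) without overlap. That is 83.3% of the list, against 46.8% of all genes tested, and the median difference was 0.11. *G6pdx* and *Taldo1* were named after their values were seen. *Tkt* and *Taldo1* act in the pentose phosphate pathway but do not make NADPH themselves. *Tkt*, the transketolase of the pentose phosphate pathway, had 68.7 and 60.0 FPKM in Cont-IMQ skin against 78.7 and 83.5 FPKM in 7KC-IMQ skin, a difference of 0.33 (adjusted p = 0.356 in limma). It was the one gene of the 6 with an unadjusted p-value under 0.05 (16.7%, against 13.0% of all genes tested). *Pgd*, the 6-phosphogluconate dehydrogenase, had 56.1 and 48.7 FPKM against 58.6 and 64.6 FPKM. *Idh1* had 37.7 and 42.8 FPKM against 37.3 and 37.4 FPKM.

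**Figure D2:**
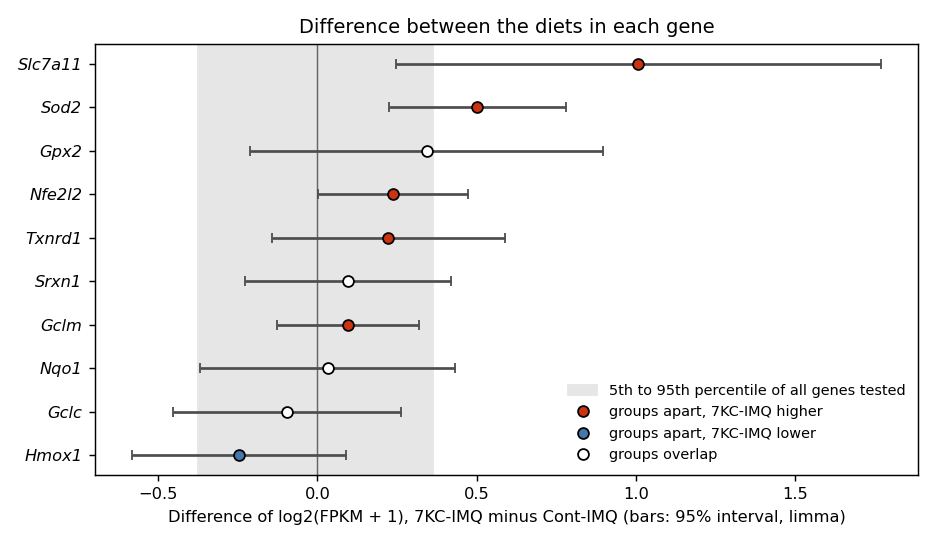
Difference of log2(FPKM + 1), 7KC-IMQ minus Cont-IMQ, for the 10 genes, with the 95% interval of the limma fit as bars and the 5th to 95th percentile of all genes tested as a gray band (-0.38 to 0.36). *Slc7a11* (1.01) and *Sod2* (0.50) lie beyond the band, and the intervals of 3 genes, these and *Nfe2l2*, do not reach 0. The interval of *Nfe2l2* begins at 0.0013.

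The regulators of NRF2 differed little. Of the 12, 0 had an unadjusted p-value under 0.05 or passed the adjusted threshold in limma, and the differences ranged from -0.17 to 0.09 with a median of -0.07. *Keap1*, the sensor, had 24.7 and 18.1 FPKM in Cont-IMQ skin against 22.6 and 22.4 FPKM in 7KC-IMQ skin. Its ligase partners *Cul3* (91.0 and 76.1 against 77.6 and 80.3 FPKM) and *Rbx1* (48.8 and 44.3 against 45.3 and 46.1 FPKM) overlapped as well. *Bach1*, the repressor of *Hmox1*, had 23.5 and 24.6 FPKM against 23.0 and 24.3 FPKM.

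The small Maf partners overlapped between the groups, with differences of 0.09 for *Mafg*, 0.02 for *Maff* and -0.07 for *Mafk*. The 3 of 12 regulators that lay apart were lower in the 7KC-IMQ group, a share near the 22.9% of all genes tested. *Sqstm1*, encoding p62, which sequesters KEAP1 and is itself a target of NRF2, had 179 and 169.9 FPKM against 158.9 and 150.4 FPKM, a difference of -0.17 (adjusted p = 0.436 in limma) and of -0.28 after quantile normalization. *Gsk3b* and *Btrc*, of the KEAP1-independent route of NRF2 degradation, each had a difference of -0.14, which for *Btrc* was -0.078 without 7KC-IMQ replicate 1. *Nfe2l1*, the paralog NRF1, and *Crebbp*, a coactivator, overlapped, with differences of -0.11 and -0.08.

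**Figure D3:**
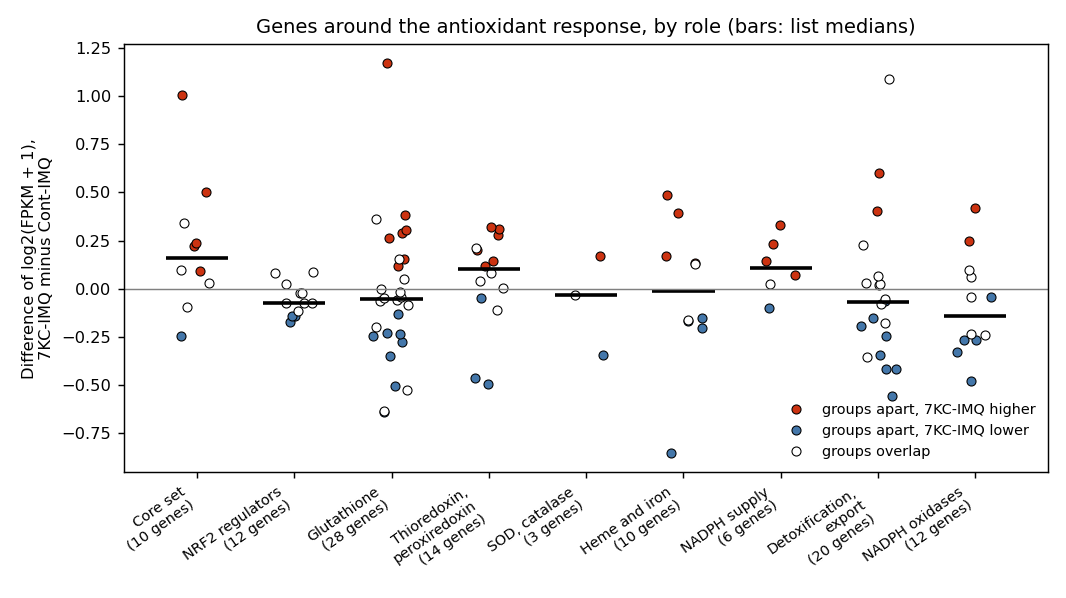
Difference of log2(FPKM + 1), 7KC-IMQ minus Cont-IMQ, of each tested gene of the core set and of 8 lists grouped by role, with filled symbols where the groups lay apart and a bar at the median of each list. The medians range from -0.14 to 0.16, and most lists hold genes on both sides of 0.

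By mean level over the 4 libraries, the order of the 10 genes was *Nfe2l2* (73.1 FPKM), *Hmox1* (62.1), *Txnrd1* (55.2), *Sod2* (33.1), *Srxn1* (20.2), *Gclm* (11.8), *Gclc* (10.3), *Nqo1* (9.42), *Slc7a11* (8.56) and *Gpx2* (5.29 FPKM). Over the 4 libraries, the ranges of neighbors in this order overlapped, except those of *Txnrd1* and *Sod2*, of *Sod2* and *Srxn1*, and of *Srxn1* and *Gclm*. The ranges of *Slc7a11* and *Gpx2* overlapped, although *Gpx2* was the lower of the pair within each library.

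The makeup of the skin samples was read from markers of 8 cell types. Keratinocyte markers were abundant, with *Krt14* between 4132 and 5699.9 FPKM, and their summed level was 24101 and 16223 FPKM in Cont-IMQ skin against 18723 and 20751 FPKM in 7KC-IMQ skin. Of 9 neutrophil markers tested, 7 were higher without overlap and 0 lower, against 23.9% and 22.9% of all genes tested. Their summed level was 2579 and 2122 FPKM against 7223 and 13817 FPKM, in the order of the libraries for *Slc7a11*, and nearly all of it was *S100a8* and *S100a9*, which keratinocytes also express. Among the 7, *Camp* (at most 0.68 FPKM) and *Mmp8* (at most 1.49 FPKM) were at a low level, whereas *Cxcr2* had at least 13.4 FPKM in each library. The granule gene *Mpo* was at most 0.0562 FPKM, and *Ly6g* was not analysed here. The part of these cells in the values of *Slc7a11*, *Sod2* and *Gsta4* was not tested.

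Hair follicle markers split the Cont-IMQ group, with a summed level of 117 FPKM in replicate 1 and 1555 FPKM in replicate 2. In 7KC-IMQ skin the sums were 442 and 390.1 FPKM. Of the 14 markers, 0 lay apart, against 46.8% of all genes tested. Without Cont-IMQ replicate 2, *Nqo1*, *Gclc*, *Srxn1*, *Keap1*, *Bach1*, *Mafk*, *Crebbp* and *Sod1* took the other sign. Other libraries did the same when left out, Cont-IMQ replicate 1 for *Cul3*, *Rbx1*, *Nfe2l1* and *Maff*, 7KC-IMQ replicate 1 for *Bach1* and *Mafk*, and 7KC-IMQ replicate 2 for *Nqo1*, *Maff* and *Sod1*. The part of hair follicles in these values was not tested. Muscle (9653 and 9127 against 7974 and 9343 FPKM) and adipocyte markers (1783 and 2673 against 2590.5 and 2059 FPKM) overlapped in their sums. Single markers did not all match. Of 11 muscle markers, 2 were higher and 2 lower without overlap, with *Myh4* higher (difference 2.07) and *Myh1* lower (-0.76). Of 10 adipocyte markers, 3 were higher and 0 lower, against 23.9% and 22.9% of all genes tested. The sums of the sebocyte markers did not overlap, with 547 and 430.0 FPKM against 636 and 621 FPKM. Of these 8 markers, 5 were higher and 2 lower without overlap, against 23.9% and 22.9% of all genes tested. Of 4 red blood cell markers tested, 1 was lower without overlap, near the 22.9% of all genes tested, and 0 higher. The sums were 27.0 and 7.16 against 6.81 and 25.6 FPKM. The marker that was lower, *Hbb-bs*, had 8.32 FPKM in Cont-IMQ replicate 1 and at most 0.00438 FPKM in the other libraries, so its groups lay apart only by a trace.

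**Figure D4:**
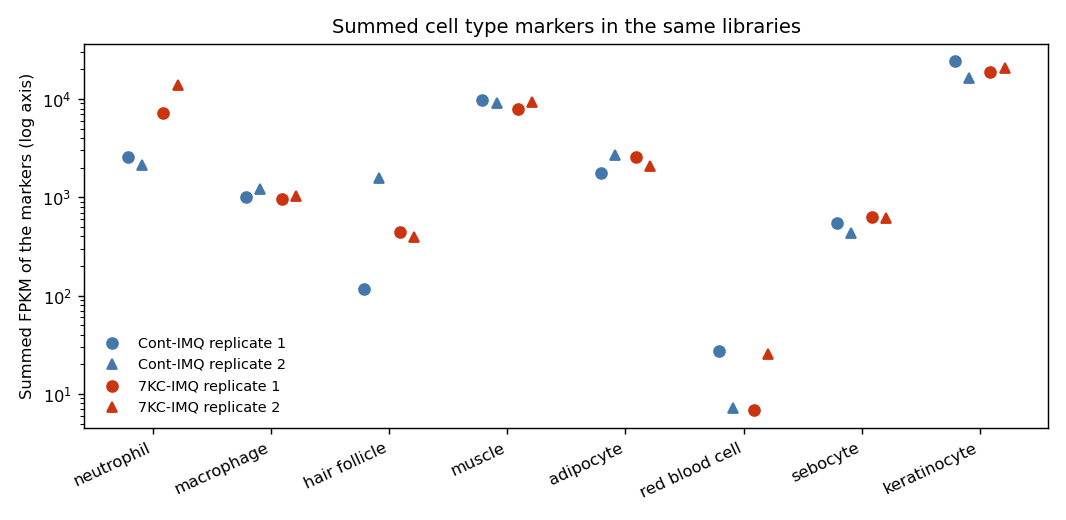
Summed FPKM of the markers of 8 cell types on a log axis, with a symbol for each library. The neutrophil sum lies higher in both 7KC-IMQ libraries, whereas the hair follicle sum runs from 117 to 1555 FPKM within the Cont-IMQ group.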

How the data were processed

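RNA of IMQ-treated dorsal skin was sequenced in 4 libraries, 2 in each group. Reads of 75 bases were aligned to mm10, and the authors deposited 1 file of FPKM per library, from Cufflinks. The submitters' processing notes name TopHat2 2.1.1, Bowtie2 2.2.8, SAMtools 0.1.18 and Cuffdiff 2.2.1. How reads matching several genes were handled is not given in the sources used here. FPKM are not counts, so no count model was used, and a value of exactly 0 can be a failed estimate (*Rpl26*, a ribosomal protein gene, was listed at 0 in Cont-IMQ replicate 2).

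Groups were taken from the sample titles. The 15896 genes whose mean FPKM reached 0.1 were compared on log2(FPKM + 1) using limma 3.58.1 (R 4.3.3) with its variance trend switched on, p-values being adjusted after Benjamini-Hochberg and called at 0.05, and the procedure was tested on simulated data. Lists of genes by role were compiled by hand and described by counts and medians. The 10 genes and the lists were chosen with earlier results of these data known. Genes named were the 10, the 12 regulators and, in each other pathway list, the 2 genes farthest above 0 and the 2 farthest below 0 whose mean FPKM reached 1, plus any past the adjusted threshold (there were none). Genes said to be named after their values were seen or for a motif, and marker genes, are outside this rule.

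Depth was estimated as the number of reads that brought low FPKM of single-transcript genes closest to whole reads, using an assumed fragment length. Between 74.4% and 78.2% of them were then within 0.1 of a whole read, against 20% by chance at a fixed depth. The depth was chosen to make this share largest. Over all depths tried, its median was between 12.8% and 14.2%. Coordinates, transcripts and shared 75-base windows came from GENCODE M21 (GRCm38), and promoters from RefSeq. TGAGTCAGC and TGATGNAA were chosen after the data were seen. Alternatives were another pseudocount, filter, scaling or variance model, the replicate number as a block, and leaving out each library.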

Additional observations from a re-analysis of the deposited data

How the results depend on the processing

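Both the number of libraries, 2 in each group, and the depth limit the precision, and their shares were not compared. The direction of 7 of the 10 genes, and of 42 of 54 named genes, was the same under all 11 alternatives. None of the 54 passed the adjusted threshold in any of them. Much of this sameness was fixed beforehand. Another filter, the variance model and the replicate block leave the difference of a gene unchanged. Leaving out a library cannot turn the direction of a gene whose groups lay apart. With each library left out in turn, *Nqo1* ranged from -0.12 to 0.18, *Gclc* from -0.26 to 0.068 and *Srxn1* from -0.054 to 0.24. The same range was -0.13 to 0.30 for *Keap1*, -0.20 to 0.052 for *Cul3*, -0.091 to 0.044 for *Rbx1*, -0.063 to 0.017 for *Bach1* and -0.23 to 0.28 for *Maff*, which was -0.0047 after quantile normalization. It was -0.19 to 0.049 for *Mafk*, -0.23 to 0.0064 for *Nfe2l1*, -0.15 to 0.0023 for *Crebbp* and -0.12 to 0.062 for *Sod1*.

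The median difference of the 10 genes ranged from 0.08 to 0.21 with a library left out. The medians of the lists ranged from -0.12 to -0.031 for the regulators, -0.11 to 0.014 for glutathione (above 0 without Cont-IMQ replicate 1 and without 7KC-IMQ replicate 1), 0.061 to 0.19 for thioredoxin and peroxiredoxin, 0.062 to 0.24 for NADPH supply and -0.21 to -0.0098 for the NADPH oxidases. The NADPH oxidase median was -0.24 with a mean FPKM of at least 1, where fewer genes are tested, and the heme and iron median -0.051 after quantile normalization, and the cause was not tested. Over all genes tested, 1 passed the adjusted threshold, 2 with a pseudocount of 0.1, and 1 to 11 with a library left out (11 without Cont-IMQ replicate 1 and 5 without replicate 2). Those with an unadjusted p-value under 0.05 numbered 2061, and between 619 (without 7KC-IMQ replicate 2) and 2345 with a library left out, the count among the 10 genes being between 1 and 3.

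With the replicate number as a block, 1 gene passed the adjusted threshold and 1754 had an unadjusted p-value under 0.05. Of the 10 genes, 0 passed the adjusted threshold, with 4 in place of 3 under the unadjusted one. The count of the 10 under the unadjusted threshold was 2 with a mean FPKM of at least 1, with median ratio scaling and without the variance trend. Same-numbered libraries deviated from their group means with a correlation of 0.07 over genes, and nothing states that a number marks a shared litter or day. Of the 4 genes with TGACNNNGC in a promoter window, 1 (*Txnrd1*) held the longer form with A or G before the core.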

Other observations

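Enzymes that make superoxide or hydrogen peroxide were listed beside those that remove them. Of 12 genes of the NADPH oxidases, the 7KC-IMQ values of 2 were higher and of 5 lower without overlap. The shares of all genes tested were 23.9% and 22.9%. The median difference of the list was -0.14. The pair that lay higher belongs to the dual oxidase of epithelia. *Duox1* had 1.99 and 1.83 FPKM in Cont-IMQ skin against 2.61 and 3.22 FPKM in 7KC-IMQ skin, a difference of 0.42 (adjusted p = 0.360 in limma). *Duoxa1*, its maturation factor, had 5.50 and 5.90 FPKM against 6.32 and 7.65 FPKM.

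Genes of the phagocyte oxidase were among those that lay lower. *Cybb*, its catalytic subunit, had 8.33 and 8.78 FPKM in Cont-IMQ skin against 6.46 and 6.75 FPKM in 7KC-IMQ skin, a difference of -0.33 (adjusted p = 0.356 in limma). *Ncf4*, a cytosolic subunit, had 8.29 and 7.58 FPKM against 4.53 and 6.40 FPKM, a difference of -0.48 (adjusted p = 0.372 in limma), which was -0.27 without 7KC-IMQ replicate 1. In the same libraries 7 of 9 neutrophil markers were higher and 0 lower without overlap, against 23.9% and 22.9% of all genes tested. Some of the 7, such as *Camp* and *Mmp8*, were at a low level, and *S100a8* and *S100a9* are also expressed by keratinocytes. Of 11 macrophage markers, 3 were lower, near that 22.9%, and 0 higher, and their summed level overlapped between the groups. The part of these cells in the oxidase values was not tested.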
